A study of Homo sapiens with 6 samples.

Results

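MHC class I molecules display peptides from inside the cell to CD8 T cells and natural killer cells, and the genes that build and load them were compared between A2780 ovarian cancer cells with and without a hairpin against USP39. The 9 genes were taken by symbol from the deposited table: the heavy chains HLA-B, HLA-C, HLA-E and HLA-F, the light chain B2M, the peptide transporter subunits TAP1 and TAP2, the loading factor TAPBP and the transcriptional activator NLRC5. They are 9 of 16571 gene symbols in the table, and 8 of them were among the 10695 genes with enough counts to test. HLA-F, with 1 to 7 counts a library, was not.

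The series held 6 RNA-seq libraries of A2780, a human ovarian cancer cell line, in 2 groups of 3. The control group carried pGIPZ-NC, the non-targeting form of a lentiviral short hairpin vector, and the other group, shUSP39, carried a short hairpin that targets the spliceosome protein USP39. Both groups were infected with lentivirus, and the study's methods describe stable lines selected with puromycin. Which hairpin each shUSP39 library carried, and whether the lines were clones, is not stated in the sources used here, and the level of USP39 was not analysed here.

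A class I molecule is a polymorphic or non-classical heavy chain held together with beta-2 microglobulin, the product of B2M, and with a short peptide. Peptides cut by the proteasome are pumped into the endoplasmic reticulum by TAP1 and TAP2, and tapasin, the product of TAPBP, bridges the transporter to the empty heavy chain until a peptide fits. Type I and type II interferons raise transcription of these genes through STAT and IRF factors, and NLRC5 acts at a separate promoter module, made of the X and Y boxes, through the RFX, CREB/ATF and NF-Y proteins.

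Promoters of class I genes are known for sequence elements through which this control acts, and stretches of 7 of them are shown with the elements found there. The stretches are shorter than the windows searched, so what a member lacks cannot be read from them. Matches outside them include CCAAT in TAP1 at -249 to -245 and GGGNNTTCC in B2M at -4 to 4. They were read from RefSeq windows on GRCh38.p14 that run from 250 bases before to 50 after a gene's start site, for the 7 members that have a window there. Each is written 5′ to 3′ on the gene's own strand and ends upstream of the start site. Capitals mark any of 6 motifs found on either strand: GAAANNGAA and its mirrored form GAANNGAAA (cores of the interferon-stimulated response element), TTCNNNGAA (the gamma-activated site), CCAAT (the Y box), TGACG (a part of the X2 box) and GGGNNTTCC (NF-kappa B).
HLA-B, chr6:31357229-31357364, minus strand: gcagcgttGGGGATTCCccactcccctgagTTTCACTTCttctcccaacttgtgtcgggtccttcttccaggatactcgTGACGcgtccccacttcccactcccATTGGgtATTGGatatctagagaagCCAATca
HLA-C, chr6:31272142-31272273, minus strand: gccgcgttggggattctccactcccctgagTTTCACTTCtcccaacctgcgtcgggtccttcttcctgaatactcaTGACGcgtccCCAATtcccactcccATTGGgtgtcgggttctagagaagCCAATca
HLA-F, chr6:29723254-29723384, plus strand: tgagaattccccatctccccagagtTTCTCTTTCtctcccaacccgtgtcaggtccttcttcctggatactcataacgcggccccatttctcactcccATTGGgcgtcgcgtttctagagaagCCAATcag
B2M, chr15:44711367-44711477, plus strand: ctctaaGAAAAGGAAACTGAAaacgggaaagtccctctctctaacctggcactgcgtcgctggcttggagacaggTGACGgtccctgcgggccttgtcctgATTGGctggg
TAP1, chr6:32853815-32853844, minus strand: ggccgctTTCGATTTCGCTTTCccctaaat
TAP2, chr6:32838765-32838809, minus strand: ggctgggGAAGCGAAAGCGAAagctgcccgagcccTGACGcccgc
TAPBP, chr6:33314083-33314138, minus strand: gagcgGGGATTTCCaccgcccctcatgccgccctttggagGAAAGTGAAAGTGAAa

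GAAANNGAA was found in the windows of 5 of the 7 members (HLA-F, B2M, TAP1, TAP2 and TAPBP) and in 8.11% of all 35116 windows. GAANNGAAA, a form added after the windows were seen, was found in HLA-B, HLA-C and TAP2 and in 7.66% of all windows. It was added for the windows of HLA-B and HLA-C, so a count over both forms would be fixed by that choice. TAP1 has 2 windows and the other members 1, and a member counts if any of its windows matched. In HLA-B and HLA-C the matched 9 letters are the same, TTTCACTTC, at -155 to -147 and at -151 to -143, counted from the start site as 0. In B2M, TAP1, TAP2 and TAPBP the matches overlap each other.

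The modules of the heavy chains also differ in these letters. GGGNNTTCC was found in HLA-B, B2M and TAPBP (6.58% of all windows) and not in HLA-C or HLA-F. TGACG was found in HLA-B, HLA-C, B2M and TAP2 (24.6% of all windows) and not in HLA-F. CCAAT was found in HLA-B, HLA-C, HLA-F, B2M and TAP1 (34.6% of all windows), and TTCNNNGAA in TAP1 alone among the members (7.66% of all windows). A match is a run of letters and says nothing about binding in these cells.

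In the counts, 5 of the 8 members tested were higher in shUSP39 cells at an adjusted p under 0.05 (edgeR quasi-likelihood test, Benjamini-Hochberg over all genes) and none was lower. They were HLA-B, HLA-C, HLA-E, B2M and TAP1. Of all genes tested, 16.1% were higher and 17.5% lower by the same rule. With a change of over 2-fold asked for as well, HLA-B was the 1 member left, where 4.53% of all genes were called higher and 2.28% lower. For 6 of the 8 members the lowest shUSP39 library was above the highest pGIPZ-NC library, TAP2 included, as it was for 21.7% of all genes tested. The median log2 fold change was 0.51 over the 8 members and 0.0085 over all genes tested. In bulk RNA, a change in the share of cells that express a gene and a change in RNA per cell cannot be told apart.

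**Figure D1:**
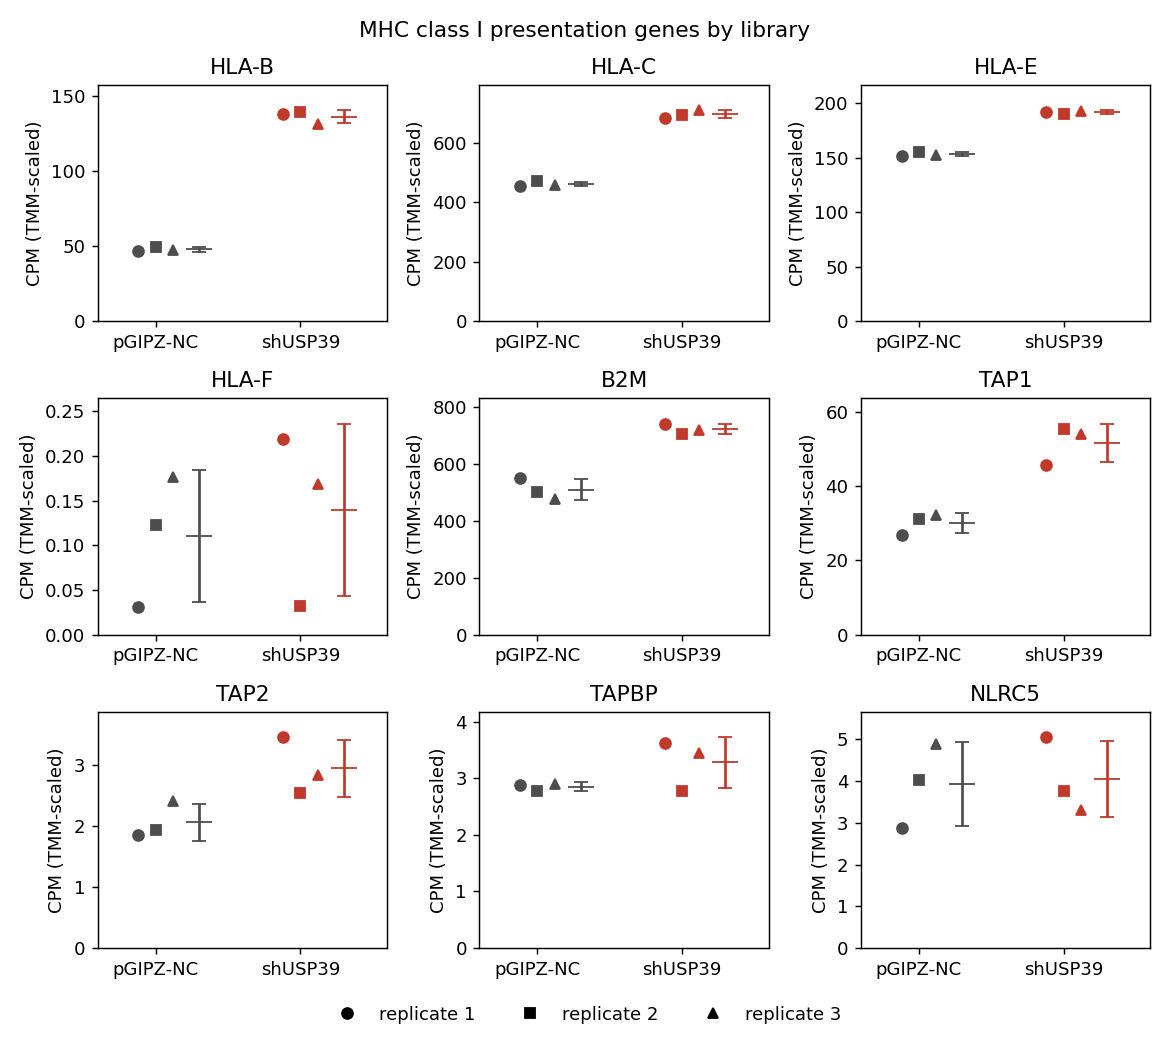
Level of each member in CPM (counts per 1000000, linear axis from 0, totals scaled by TMM) in the 3 pGIPZ-NC and 3 shUSP39 libraries; bars give mean ± SD, n = 3 a group, and marker shapes give the replicate number, which does not pair the groups. The groups stand apart for HLA-B, HLA-C, HLA-E, B2M, TAP1 and TAP2 and overlap for HLA-F, TAPBP and NLRC5.

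The libraries held 28294819 to 32939264 counts each, a depth at which HLA-C and B2M had at least 12995 counts and TAP2, TAPBP and NLRC5 at most 162. The pGIPZ-NC libraries and shUSP39 replicate 1 had 12662 to 12819 genes with a count, while shUSP39 replicates 2 and 3 had 15446 and 14890. The labels call A2780 a serous line, and markers of such tumours were near 0: PAX8, EPCAM, CDH1 and MSLN had 0 to 6 counts in every library. MUC16 had 1 to 6 counts apart from 150 and 71 in shUSP39 replicates 2 and 3, KRT8 fell from 26 to 37 counts to 0 to 3, and KRT18 went from 22.4 ± 1.57 to 32.9 ± 3.09 CPM (SD, n = 3). The 7 leukocyte markers in the table summed to 10.1 to 12.8 CPM in pGIPZ-NC and 12.1 to 13.0 in shUSP39, most of it CD68, with 0 to 7 counts of PTPRC and 0 to 5 of CD3E. The 8 fibroblast and endothelial markers summed to 6.77 to 8.22 and 2.56 to 3.58 CPM. Of the 3 tested, DCN and LUM were lower (log2 fold changes of -3.81 and -3.63), and PDGFRB did not pass (0.29 ± 0.35). The rest had too few counts to test and did not fall with them. VWF had 9 to 10 counts in pGIPZ-NC and 10 to 40 in shUSP39, CDH5 0 to 3 and 1 to 13, and KDR 0 to 1 and 3 to 9. PECAM1 had 1 to 4 and 0 to 5, and PDGFRA 0 and 0 to 6. The part of these marker differences in the members' values was not tested. Without shUSP39 replicates 2 and 3, the libraries with more genes detected, the same number of members, 5, passed the adjusted p, and HLA-B was at a log2 fold change of 1.52.

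HLA-B, a classical heavy chain that presents peptides to CD8 T cells, rose the most among the members. Its counts in pGIPZ-NC were 1484, 1614 and 1340 for replicates 1, 2 and 3, and 4404, 4265 and 3890 in shUSP39, which in CPM (counts per 1000000 of the scaled library total) is 46.5, 49.7 and 47.5 against 138, 139 and 132. Every shUSP39 library was well above every control library. The log2 fold change was 1.51 ± 0.05 (SE), a fold of 2.84 with a 95% interval of 2.63 to 3.07 (adjusted p = 8.43e-18, edgeR quasi-likelihood test), and it stood at place 315 from the highest of all 10695 genes tested. The gene lies at chr6:31321649-31334844 on the minus strand of GRCh37, the build of all gene positions from here on.

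HLA-C, a classical heavy chain that natural killer cells also read through their inhibitory receptors, was the most abundant heavy chain in both groups. Its level was 456, 471 and 460 CPM in the 3 pGIPZ-NC libraries and 684, 695 and 710 in the 3 shUSP39 libraries. The groups did not overlap, and the libraries of a group lay close together. HLA-C rose by 0.59 ± 0.03 on the log2 scale (SE), a fold of 1.51 with a 95% interval of 1.44 to 1.58 (adjusted p = 7.21e-14, edgeR). It lies at chr6:31236526-31239907, minus strand.

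HLA-E is a non-classical heavy chain that presents signal peptides of other class I chains to natural killer cells. It was at 152, 156 and 153 CPM in pGIPZ-NC and at 192, 190 and 193 CPM in shUSP39. This was the smallest change among the heavy chains tested, and still larger than the spread between libraries in each group. The log2 fold change was 0.32 ± 0.04 (SE), a fold of 1.25 with a 95% interval of 1.18 to 1.33 (adjusted p = 6.01e-07, edgeR). It lies at chr6:30457286-30461971, plus strand.

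HLA-F, a non-classical heavy chain that can reach the surface without peptide, had 1, 4 and 5 counts in pGIPZ-NC and 7, 1 and 5 in shUSP39. The groups overlapped, and the summed 10 and 13 counts gave a ratio of 1.31 with an exact 95% interval of 0.529 to 3.33, which covers counting error only. No difference was detectable at these counts. An antisense gene, HLA-F-AS1, overlaps HLA-F at chr6:29690552-29706305, and whether strand was used in counting is not stated.

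The 3 heavy chains did not change by the same factor, so the makeup of the heavy chain counts differed between the groups. HLA-B made up 7.11, 7.35 and 7.18% of the heavy chain counts in the pGIPZ-NC libraries and 13.6, 13.6 and 12.7% in shUSP39. HLA-E went from 23.1 ± 0.10% to 18.7 ± 0.21%, and HLA-C from 69.7 ± 0.03% to 68.0 ± 0.58% (SD, n = 3). For each of these 3 shares the groups stood fully apart.

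Within a library, there were 0.102, 0.106 and 0.103 HLA-B counts for each HLA-C count in pGIPZ-NC and 0.201, 0.200 and 0.185 in shUSP39. These ratios do not depend on how the libraries were scaled. Per kilobase of the annotated main coding transcript, HLA-B was below HLA-E in every pGIPZ-NC library, at 30.3 to 32.4 against 59.6 to 61.0 CPM per kilobase, and above it in every shUSP39 library, at 85.6 to 90.7 against 74.5 to 75.8. Each of these ratios gave an exact two-sided permutation p of 0.10, the smallest that 3 against 3 libraries allow, and an adjusted p of 0.143 over the 10 ratios computed.

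**Figure D2:**
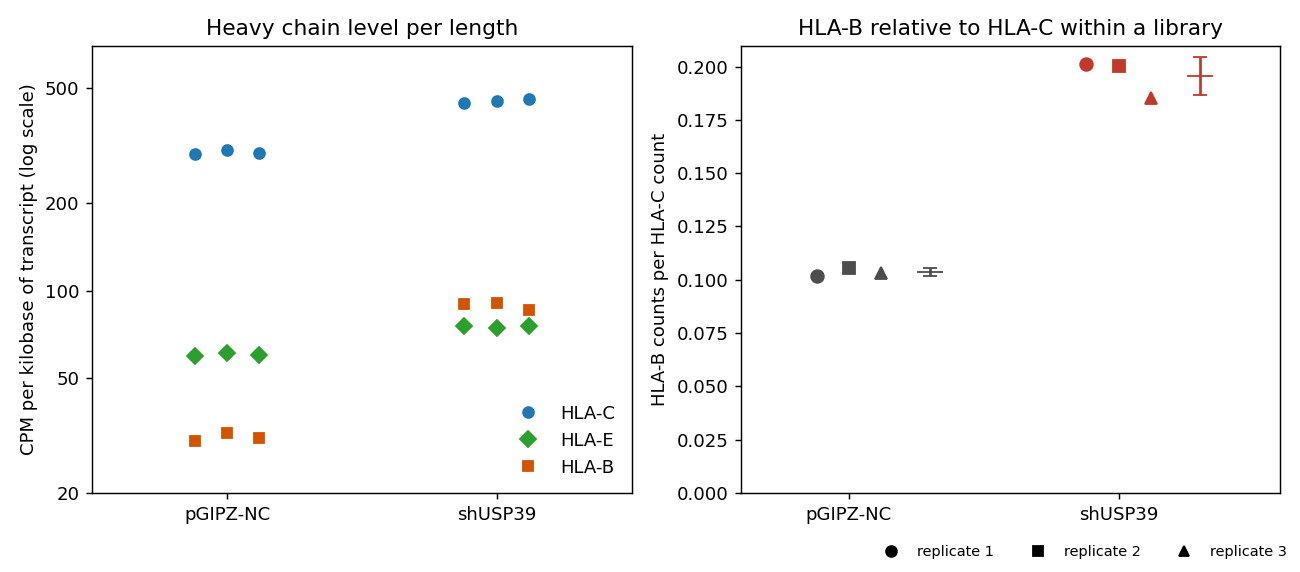
Left, CPM per kilobase of transcript (log axis) of HLA-C, HLA-E and HLA-B in each library; right, HLA-B counts per HLA-C count in each library (linear axis from 0), with mean ± SD, n = 3. HLA-B lies below HLA-E in the pGIPZ-NC libraries and above it in the shUSP39 libraries, and HLA-B per HLA-C goes from 0.102 to 0.106 up to 0.185 to 0.201.

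The light chain B2M, which every class I heavy chain needs, was the most abundant member. Its level was 550, 502 and 478 CPM in pGIPZ-NC and 742, 706 and 720 CPM in shUSP39. The controls spread more widely than the shUSP39 libraries, and the groups did not overlap. B2M rose by 0.50 ± 0.04 on the log2 scale (SE; 95% interval 0.42 to 0.59), a fold of 1.42 (adjusted p = 1.31e-10, edgeR). B2M lies outside the MHC region, at chr15:45003556-45011049, plus strand. For each heavy chain count there were 0.769 ± 0.06 B2M counts in the controls and 0.706 ± 0.02 with the hairpin (SD, n = 3), and the groups overlapped (exact permutation p = 0.20, adjusted p = 0.222). With both per kilobase the ratio was 1.30 to 1.51 and 1.22 to 1.29, without overlap (exact permutation p = 0.10).

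TAP1, a subunit of the transporter that brings peptides into the endoplasmic reticulum, had the largest change after HLA-B. Its counts were 858, 1009 and 907 in pGIPZ-NC and 1465, 1690 and 1597 in shUSP39, or 26.9, 31.1 and 32.1 against 45.8, 55.2 and 54.0 CPM. The lowest shUSP39 library, replicate 1, was still above the highest control. TAP1 rose by 0.78 ± 0.08 on the log2 scale (SE), a fold of 1.72 with a 95% interval of 1.53 to 1.94 (adjusted p = 2.39e-08, edgeR). TAP1 lies at chr6:32812986-32821593 on the minus strand, inside the span of the immunoproteasome gene PSMB9 on the other strand.

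TAP2, its partner subunit, was counted far less often. It had 59, 63 and 68 counts in pGIPZ-NC and 111, 78 and 84 in shUSP39. The shUSP39 libraries were all above the controls, with replicate 1 the highest, and the difference did not pass the test. The log2 fold change was 0.52 ± 0.25 (SE), with a 95% interval of 0.0023 to 1.03 before adjustment and an adjusted p of 0.119 (edgeR). Over its 2 transcript rows, the row with 87.3% of the counts had 55, 61 and 60 counts in pGIPZ-NC and 90, 62 and 76 in shUSP39. The other row had 4, 2 and 8 against 21, 16 and 8, too few to test. The TAP1 to TAP2 count ratio was 14.5, 16.0 and 13.3 in pGIPZ-NC and 13.2, 21.7 and 19.0 in shUSP39, with overlap (exact permutation p = 0.40).

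TAPBP, or tapasin, had 92, 90 and 82 counts in pGIPZ-NC and 116, 85 and 102 in shUSP39, with overlapping levels of 2.77 to 2.90 and 2.78 to 3.63 CPM. Its log2 fold change was 0.20 ± 0.22 (SE) with a 95% interval of -0.25 to 0.66 (adjusted p = 0.529, edgeR). Counting error alone was at least 9.28% of the count in each library, and a change of the size measured for HLA-E lies within this interval.

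NLRC5, the activator that works at the X and Y box module of class I promoters, did not pass the test either. It had 92, 131 and 138 counts in pGIPZ-NC and 162, 115 and 98 in shUSP39, and each group covered much of the other's range. The log2 fold change was 0.04 ± 0.22 (SE) with a 95% interval of -0.41 to 0.50 (adjusted p = 0.904, edgeR), and its sign turned to -0.14 without pGIPZ-NC replicate 1 and to -0.15 without shUSP39 replicate 1. Its 2 transcript rows went different ways. The row with 37.5% of the counts had 33, 42 and 40 counts in pGIPZ-NC and 47, 66 and 48 in shUSP39, without overlap (log2 fold change 0.49 ± 0.32, adjusted p = 0.275, edgeR on transcripts). The row with 62.5% had 59, 89 and 98 against 115, 49 and 50, with overlap (log2 fold change -0.22 ± 0.30, adjusted p = 0.655).

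Tested as transcripts, 5 of the 9 member rows with enough counts were higher, 1 each of HLA-B, HLA-C, HLA-E, B2M and TAP1, where 14.2% of the 12553 transcripts tested were higher. The table lists 1 row each for HLA-B, HLA-C, HLA-E, HLA-F, B2M and TAPBP, so those sums rest on a single transcript model. The other TAP1 row held 0.159% of its counts.

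**Figure D3:**
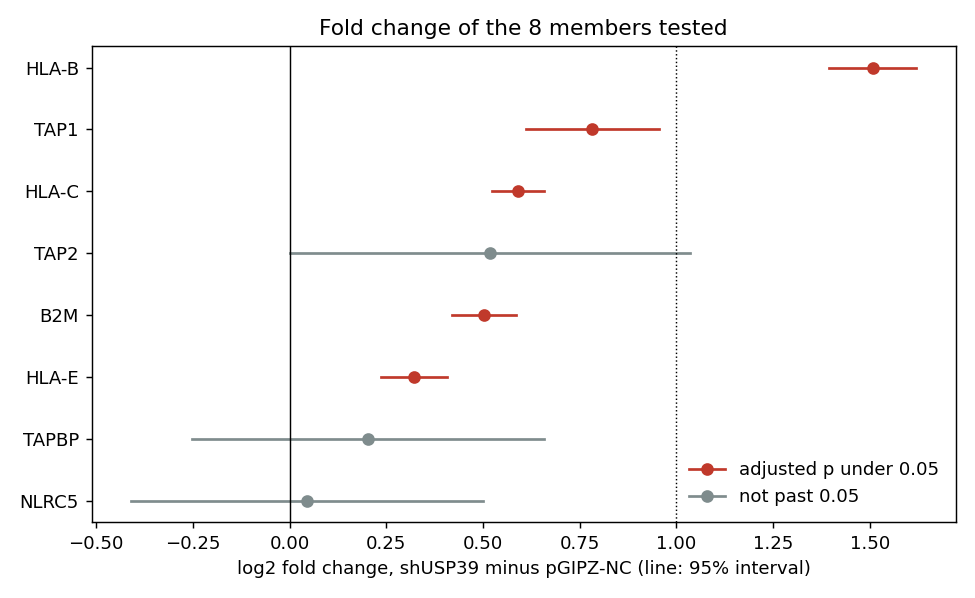
Log2 fold change (shUSP39 minus pGIPZ-NC, 3 libraries a group) of the 8 members tested, as points with 95% intervals from the edgeR fit; red marks an adjusted p under 0.05 and the dotted line a 2-fold change. HLA-B lies past the dotted line at 1.51, the other members past the adjusted p between 0.32 and 0.78, and the intervals of TAPBP and NLRC5 cross 0.

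The order of the members per kilobase of transcript was the same in both groups except for the exchange of HLA-B and HLA-E. In pGIPZ-NC the means ran from B2M at 541 ± 39.0 through HLA-C at 300.0 ± 4.94, HLA-E at 60.2 ± 0.75, HLA-B at 31.2 ± 1.05 and TAP1 at 11.2 ± 1.03 CPM per kilobase (SD, n = 3). TAPBP at 0.827, NLRC5 at 0.580, TAP2 at 0.366 and HLA-F at 0.0747 followed. In shUSP39 the means were 766 ± 19.2 for B2M, 452 ± 8.32 for HLA-C, 88.6 ± 2.68 for HLA-B, 75.2 ± 0.63 for HLA-E and 19.2 ± 1.91 for TAP1. NLRC5 and TAP2 were neighbours whose library values overlapped in both groups, and every other pair of neighbours stood apart in both.

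Of the 9 members, 7 lie between HLA-F and TAPBP on chromosome 6, at positions 29690552 to 33282061, and 4 of the 6 tested there were higher. Over the whole table, 16.1% of the genes tested were higher and 17.5% lower. The same stretch, picked after the values were seen, holds 73 other genes that were tested. Of these, 10 (13.7%) were higher and 14 lower, and their median was -0.07 on the log2 scale. Those called at over 2-fold were IER3, VWA7 and TNXB, which were higher, and PRRT1, PPT2 and PSORS1C1, which were lower.

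Other genes of the pathway were counted from lists written with earlier results of these data known. A list of peptide loading genes also held the more general endoplasmic reticulum genes HSPA5 and SEC61A1. Of its 7 tested genes, 5 were higher, none was lower and 2 did not pass, with a median log2 fold change of 0.24. Among all genes tested, 16.1% were higher and 17.5% lower, shares that also belong beside the counts of the lists that follow. The chaperone HSPA5 (BiP), an abundant protein of the endoplasmic reticulum, rose from 3458 ± 82.7 to 5821 ± 46.6 CPM (log2 fold change 0.75 ± 0.03, adjusted p = 2.04e-18, edgeR). The translocon subunit SEC61A1 rose by 0.37 on the log2 scale, and the chaperones CANX, PDIA3 and CALR by 0.30, 0.19 and 0.18. The tapasin homologue TAPBPL and the trimming peptidase ERAP1 did not pass (0.09 ± 0.10 and 0.24 ± 0.36), and ERAP2 had 0 to 2 counts a library.

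The proteasome cuts the peptides that class I molecules carry. Of 5 immunoproteasome and regulator genes tested, none was higher and 1, the assembly factor POMP, was lower (-0.29 ± 0.05, adjusted p = 3.94e-05, edgeR), with a median of -0.05. PSMB9, a catalytic subunit whose gene overlaps TAP1, went from 9.59 ± 0.84 to 11.8 ± 0.59 CPM (log2 fold change 0.30 ± 0.13, adjusted p = 0.068), and PSMB10, another catalytic subunit, from 45.2 ± 4.23 to 51.3 ± 0.75 (0.18 ± 0.07, adjusted p = 0.0504). TAP1 counts per PSMB9 count were 2.97, 3.40 and 3.04 in pGIPZ-NC and 4.01, 4.80 and 4.33 in shUSP39, without overlap (exact permutation p = 0.10, adjusted p = 0.143). PSMB8 had 0 to 9 counts a library. None of the 3 constitutive catalytic subunits passed the test.

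The factors that bind the class I promoter module with NLRC5 showed no increase past the test. Of 8 tested, 2 were lower and 6 did not pass, with a median log2 fold change of -0.07. The 2 lower ones were RFXANK, a subunit of the RFX complex (-0.58 ± 0.11, adjusted p = 9.37e-05, edgeR), and NFYB, a subunit of NF-Y (-0.24 ± 0.06, adjusted p = 0.00237).

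A list of genes that carry interferon signals to these promoters also held NFKB1, a subunit of NF-kappa B. Of its 11 tested genes, 3 were higher, 2 were lower and 6 did not pass. The median log2 fold change was -0.03, the value of NFKB1, and 5 of the 11 changes were positive. Among all genes tested, 16.1% were higher and 17.5% lower. The higher ones in the list were IRF9, IRF1 and IFNGR1, at log2 fold changes of 0.44, 0.41 and 0.36. IRF2, which can repress interferon-driven transcription, and the kinase TYK2 were lower at -0.32 and -0.19. IRF7 and the kinase JAK2 had the largest changes of the list and did not pass. IRF7 had 17, 13 and 28 counts in pGIPZ-NC and 50, 27 and 50 in shUSP39 (1.11 ± 0.44, adjusted p = 0.0529, edgeR). JAK2 had 58, 72 and 40 against 79, 93 and 85 (0.61 ± 0.26, adjusted p = 0.076). IFNAR1, IFNGR2, STAT2 and NFKB1 also did not pass, at -0.25 to -0.03. JAK1 had 0 or 1 count in every library. Whether this reflects its expression or the authors' counting, whose tool is not given in the sources used here, was not tested. Of 3 interferon genes tested, 2 were higher and 1 was lower. IFNB1 had 0, 4 and 0 counts in pGIPZ-NC and 50, 79 and 104 in shUSP39 (log2 fold change 5.76 ± 0.64, adjusted p = 5.02e-08, edgeR). IFNL1 was at 0 counts throughout pGIPZ-NC and at 137, 108 and 75 in shUSP39, at least 107-fold higher against a floor of 3 counts over the control group. IFNE, a type I interferon of epithelia, was lower (-0.77 ± 0.25, adjusted p = 0.0158). IFNL2, IFNL3, IFNA1, IFNA2 and IFNG had 0 counts in pGIPZ-NC and 0 to 11 a library in shUSP39. The highest count of each was in shUSP39 replicate 2 or 3, the libraries with more genes detected.

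**Figure D4:**
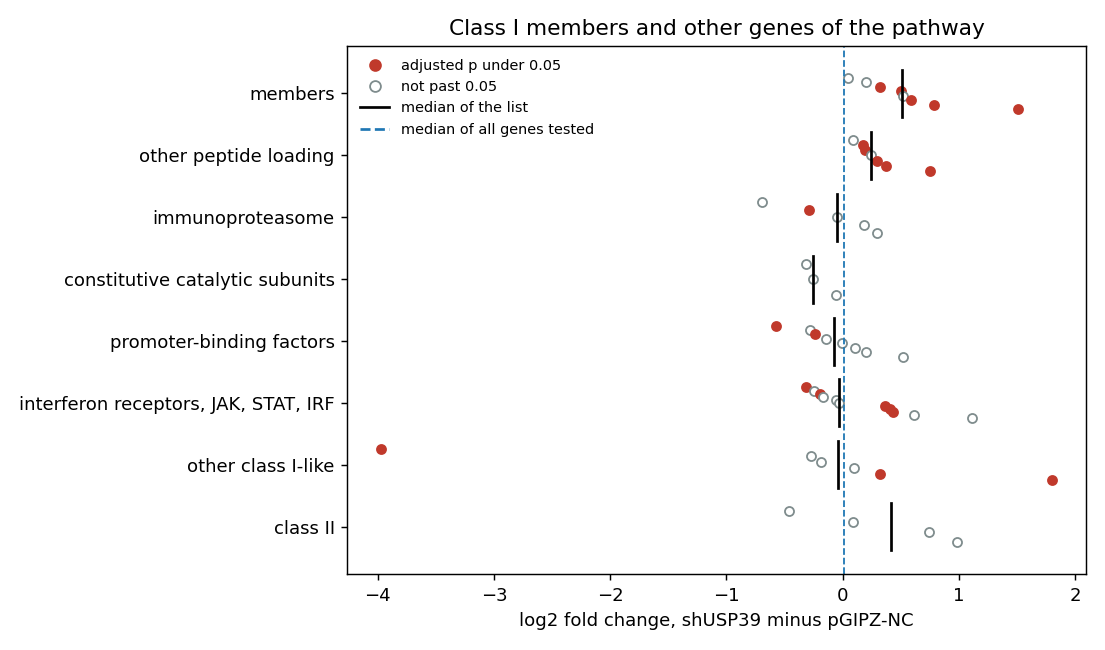
Log2 fold change (shUSP39 minus pGIPZ-NC) of every tested gene in 8 lists, 1 point a gene, filled where the adjusted p was under 0.05; black bars give each list's median and the dashed line the median of all genes tested. The medians were 0.51 for the members, 0.24 for the list marked other peptide loading and -0.05 for the immunoproteasome list. The list marked other peptide loading also holds HSPA5 and SEC61A1. ULBP2 and PROCR are the outer points of the class I-like list.

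Among other class I and class I-like genes, 2 of 6 tested were higher, 1 was lower and 3 did not pass, with a median log2 fold change of -0.04. ULBP2 and MICA, ligands of the activating receptor NKG2D, were higher. ULBP2 had 210, 234 and 198 counts in pGIPZ-NC and 734, 769 and 724 in shUSP39 (log2 fold change 1.80 ± 0.11, adjusted p = 4.15e-13, edgeR), and MICA rose by 0.33 on the log2 scale. PROCR, a class I-like receptor for protein C, had 193, 142 and 190 against 3, 8 and 22 counts (-3.97 ± 0.38, adjusted p = 2.56e-08). HLA-G had 0 counts in pGIPZ-NC and 1, 6 and 2 in shUSP39 replicates 1, 2 and 3. RAET1L, RAET1G, CD1D and AZGP1 were also at 0 in pGIPZ-NC, with 0 to 7 counts in shUSP39. The highest count of each of these genes was in shUSP39 replicate 2 or 3, the libraries with more genes detected.

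Class II genes, which share the RFX-bound module, were near the limit of counting. Of 4 tested, none passed, and the 11 of the list found in the table summed to 2.49 to 3.68 CPM in pGIPZ-NC and 3.59 to 4.25 in shUSP39. CIITA, the class II activator related to NLRC5, had 0 or 1 count a library. Of 5 tested genes for turnover of surface or misfolded chains, the ubiquitin ligase STUB1 (0.65 ± 0.23, adjusted p = 0.0266) and the signal peptide peptidase HM13 (0.42 ± 0.16, adjusted p = 0.041) were higher, and 3 did not pass.

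The genes outside these lists whose levels followed the members most closely over the 6 libraries were IL13RA2, JMJD6, ERBB3, PDK3 and KLF5. Their Pearson r with the mean of the members' standardised log2 CPM was 0.996, 0.996, 0.992, 0.992 and 0.991. The 6 points fall into 2 groups that the members themselves separate, and 9 of 10626 genes were above 0.99. IL13RA2 and KLF5 were near the limit of counting. Their mean levels were 0.273 and 0.0221 CPM in pGIPZ-NC and 1.125 and 0.595 in shUSP39. JMJD6 and ERBB3 rose by 0.24 each on the log2 scale, and PDK3 did not pass the test (0.16, adjusted p = 0.0553, edgeR).

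The HLA values carry a limit of the reference. GRCh37 holds 1 allele of each polymorphic HLA gene, the heavy chains resemble each other closely, and how the authors' counting treated reads that fit several of them is not given in the sources used here. A2780's own alleles were not analysed here. The levels of HLA-B and HLA-C relative to each other are therefore uncertain, while a difference between the groups compares the same cells' alleles under the same counting.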

How the data were processed

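The authors deposited 1 table of read counts per RefSeq transcript for the 6 libraries, whole numbers without normalisation. Its columns of pooled group values and of the authors' own comparison (fold change, p and q) were not used. Per the labels' processing notes, HISAT2 and Cufflinks were used with build hg19; the counting tool, its treatment of shared reads and of strand are not given in the sources used here. Counts were summed per gene symbol (46 of 47 symbols turned to dates by a spreadsheet were restored), filtered by filterByExpr and tested with edgeR 4.0.16 (R 4.3.3; TMM, robust quasi-likelihood test, Benjamini-Hochberg over all genes), group being the sole term. A gene was called at an adjusted p under 0.05 and over 2-fold. SEs are from the F statistic. CPM used TMM-scaled totals; lengths and positions came from GENCODE v44 lifted to GRCh37 (MANE Select transcripts), promoters from RefSeq. The test was checked on simulated data.

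The members and gene lists were chosen with earlier results of these data known. All members are described, and some listed genes are not reported here. Of each list, genes called, up to 5 a direction past the adjusted p and genes at 0 counts were to be named, and the 5 genes most like the members. The design text calls the samples biological triplicates without saying what was repeated, so p-values measure the spread between these samples, which may be technical. Replicates of a group differed beyond sampling noise (chi-square 4.69 or more per degree of freedom). Alternatives were other scalings, filters and tests (DESeq2 1.42.0, limma-voom 3.58.1), a replicate block, the largest transcript row and each library left out.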

Additional observations from a re-analysis of the deposited data

How the results depend on the processing

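HLA-B, HLA-C, HLA-E, B2M and TAP1 kept their direction and an adjusted p under 0.05 under all 16 alternatives, and 5 members passed in each that gave the count. Leaving out 1 library, the log2 fold change was 1.49 to 1.53 for HLA-B, 0.58 to 0.60 for HLA-C, 0.31 to 0.33 for HLA-E, 0.45 to 0.56 for B2M and 0.71 to 0.86 for TAP1. TAP2 (0.38 to 0.63; adjusted p 0.0888 to 0.355) and TAPBP (0.12 to 0.31) stayed positive and never passed. NLRC5 turned to -0.14 without pGIPZ-NC replicate 1, to -0.15 without shUSP39 replicate 1 and to -0.21 with the largest transcript row alone (-0.15 to 0.22 with 1 library left out). With a 1.5-fold limit, 3 members were called (HLA-B, HLA-C and TAP1) and 1226 genes, against 728 in all at 2-fold. With at least 10 counts asked for in every library, 471 genes were called, of 9556 tested. With no filter, 940 of 16571 were called and the median of all genes was 0.12. The members' median was 0.43 to 0.55 with 1 library left out.

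Replicate numbers did not pair the libraries (correlations of deviations 0.0688, 0.0048 and 0.0216). With a replicate block, 745 genes and 1 member were called, the members' median was 0.51 and no member's call changed. Without shUSP39 replicates 2 and 3, chosen after seeing the data and with the lone shUSP39 library assumed to vary like the controls, 597 genes and 1 member were called, 5 members passed and the median was 0.55.

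Low counts, 1 to 162 a library, limit TAP2, TAPBP, NLRC5 and HLA-F. What part depth, expression and the authors' counting have in these low counts was not tested.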
